A study of Mus musculus with 3 samples.

Results

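The core circadian clock and its direct output were followed through 10 genes in Visium spatial transcriptome sections of mouse heart. The genes were Arntl, Npas2, Per2, Per3, Ciart, Nr1d1, Nr1d2, Dbp, Tef and Hlf, 10 of the 32285 genes in the files. They were chosen by measured values, namely the level of each gene in each section, the opposed directions of the activators and the repressors, and the comparison of spots with high and low Ankrd1. The levels and ratios below are therefore a description and carry no test.

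Visium reads the transcripts of a cryosection on a slide of barcoded spots, and a spot can cover several cells of different types. The study has 1 section from a sham mouse, 1 from an I/R mouse (ischemia and reperfusion) and 1 from a mouse given SBP, labelled MUSKARDIA, a pill of traditional Chinese medicine, before the same injury. All were C57BL/6 mice of 8 weeks and were gavaged for 7 days before the operation, sham and I/R with vehicle and the SBP mouse with SBP. In the I/R and SBP mice the left anterior descending coronary artery was tied for 30 min and released for 24 h, whereas the sham mouse had the same operation without tying or release of the artery. The mice were kept under a light/dark cycle, but the hour at which each heart was taken is not given in the sources used here. With 1 mouse per condition, the condition and the individual mouse cannot be told apart, and no value has a replicate check.

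The clock is a loop of transcription factors. BMAL1, the product of Arntl, pairs with CLOCK or NPAS2 and switches on genes that carry E-boxes, among them the Per genes, Ciart, the Nr1d genes and Dbp. PER proteins and CIART (also called CHRONO) shut this pair down, and the REV-ERB receptors made by Nr1d1 and Nr1d2 repress Arntl and Npas2 through ROR elements (ROREs). DBP, TEF and HLF bind D-boxes and pass the rhythm on to output genes. In mouse heart, as in other tissues, Arntl and Npas2 peak when Dbp, the Per genes and the Nr1d genes are low, and the heart clock is known for rhythms of metabolism, ion channels and contractile function. Per2, Per3, Ciart, Nr1d1, Nr1d2, Dbp, Tef and Hlf are called here the 8 E-box and D-box genes. This name is a label, and not all 8 had an E-box or D-box in the windows searched below.

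The sequence around the start of these genes was searched for letters through which the loop is known to act. Some windows held a match and others held none, and windows with a match before the start are printed. RefSeq windows of GRCm38.p6, from 250 bases before to 50 bases after the start, were found for 9 of the 10 genes, 11 windows in all, and not for Per2. Both strands were searched for the E-box CACGTG, the E′-box CACGTT, the D-boxes TTATGTAA and TTACGTAA, the ROREs TAGGTCA and TGGGTCA and the cyclic AMP element TGACGTCA. The 250 bases before the start are given below 5′ to 3′ on the strand of the gene, with the matches in capitals, and the first window of Tef, which lies within a transcript of the gene, is not printed. Ciart is at chr3:95882229-95882478 on the minus strand, Tef (window 2) at chr15:81811164-81811413 on the plus strand, Nr1d1 at chr11:98775378-98775627, Per3 at chr4:151044666-151044915 and Hlf at chr11:90390918-90391167, these 3 on the minus strand.
Ciart: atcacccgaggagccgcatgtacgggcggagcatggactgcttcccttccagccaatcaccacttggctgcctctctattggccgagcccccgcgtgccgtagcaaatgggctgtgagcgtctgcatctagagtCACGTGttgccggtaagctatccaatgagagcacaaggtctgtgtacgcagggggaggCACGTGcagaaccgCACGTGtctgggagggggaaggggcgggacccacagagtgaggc
Tef: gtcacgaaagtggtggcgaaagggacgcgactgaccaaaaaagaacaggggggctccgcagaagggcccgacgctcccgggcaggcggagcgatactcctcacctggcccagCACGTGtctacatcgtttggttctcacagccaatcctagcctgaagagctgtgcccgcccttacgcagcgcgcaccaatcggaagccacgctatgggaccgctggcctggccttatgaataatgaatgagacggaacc
Nr1d1: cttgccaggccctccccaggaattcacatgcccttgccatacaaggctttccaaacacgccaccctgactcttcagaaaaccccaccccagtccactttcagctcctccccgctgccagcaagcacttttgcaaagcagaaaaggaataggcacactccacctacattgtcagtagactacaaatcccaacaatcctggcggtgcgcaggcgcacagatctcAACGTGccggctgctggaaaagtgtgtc
Per3: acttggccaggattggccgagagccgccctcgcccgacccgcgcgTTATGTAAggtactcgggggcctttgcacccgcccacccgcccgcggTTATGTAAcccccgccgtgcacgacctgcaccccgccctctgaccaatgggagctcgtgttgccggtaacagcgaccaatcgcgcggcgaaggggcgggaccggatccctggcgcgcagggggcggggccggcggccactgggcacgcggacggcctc
Hlf: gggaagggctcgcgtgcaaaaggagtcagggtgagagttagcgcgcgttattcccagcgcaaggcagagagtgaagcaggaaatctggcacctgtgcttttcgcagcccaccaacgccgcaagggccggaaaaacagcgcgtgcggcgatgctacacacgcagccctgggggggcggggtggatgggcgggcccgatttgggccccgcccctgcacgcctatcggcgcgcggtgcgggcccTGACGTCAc

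Ciart carried 3 E-boxes, which began 116, 58 and 44 bases before its start. Tef had 1 E-box in each of its 2 windows, 127 bases before the first start and 138 bases before the second. Nr1d1 had 1 E′-box on the other strand, which reads AACGTG as printed and began 28 bases before the start. Per3 had 2 D-boxes TTATGTAA, 205 and 158 bases before the start, and Hlf had the cyclic AMP element from 9 bases before its start. Of 32851 windows of this length, 7.15% held the E-box, 4.68% the E′-box, 0.938% the D-box TTATGTAA and 1.79% the cyclic AMP element. TTACGTAA (0.119% of windows) and TGGGTCA (3.98%) had no match in any of the windows. No 2 matches overlapped.

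Arntl, the target of the REV-ERB receptors, had 1 RORE TAGGTCA in the window of its second start, 30 bases after that start. It is printed as the 30 bases of chr7:113207530-113207559 on the plus strand, and 2.61% of all windows held this motif.
Arntl: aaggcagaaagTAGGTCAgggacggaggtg
The windows of Npas2, Nr1d2 and Dbp held none of these letters, which says nothing of elements elsewhere in the genes. A match is a run of letters and not a measured binding site. The last 50 bases of the Nr1d1 and Hlf windows were not found in a GENCODE M21 transcript of those genes, so that their starts differ between the annotations.

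The kept spots numbered 1960 in SBP, 2082 in I/R and 2234 in sham and held 21631280, 30238530 and 25118258 UMIs (unique molecular identifiers, 1 per captured transcript), in that order. The median per spot was 10652.5 UMIs in SBP, 14672 in I/R and 10645 in sham, and genes of the mitochondrial genome took 44.3% to 48.6% of the UMIs. The level of a gene is given as its UMIs scaled to a section total of 1e+06 UMIs (CPM) with an exact Poisson 95% interval, which covers counting error only. Transcripts were counted at their 3′ ends, so levels are compared between sections for 1 gene and not between genes. The tissue carried cardiomyocyte markers and few UMIs of atrial markers, and no list of markers specific to ventricle was read. The 6 cardiomyocyte markers summed to 23143 CPM in SBP, 20289 CPM in I/R and 26526 CPM in sham, whereas the 3 atrial markers summed to 2.71 to 3.79 CPM, with Sln at 0 in I/R and SBP. Between 1207 and 1568 spot barcodes were shared by a pair of sections and 1093 by all 3, and barcodes mark positions on a slide.

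The activators were scarce in the SBP section. Arntl (ENSMUSG00000055116, GRCm38 chromosome 7, 113207465 to 113314126, plus strand) had 15 UMIs in SBP, 120 in I/R and 76 in sham. Its level was 0.693 CPM in SBP (0.388–1.14), 3.97 CPM in I/R (3.29–4.75) and 3.03 CPM in sham (2.38–3.79). SBP was low, and its interval did not overlap those of sham and I/R, which overlapped each other. At the level of I/R, the depth of the SBP section would have given 85.8 Arntl UMIs. Npas2 (ENSMUSG00000026077, chromosome 1, 39193731 to 39363236, plus strand), the partner that can stand in for CLOCK, had 15 UMIs in SBP, 63 in I/R and 37 in sham. Its level was 0.693 CPM in SBP (0.388–1.14), 2.08 CPM in I/R (1.60–2.67) and 1.47 CPM in sham (1.04–2.03). The order was that of Arntl, with SBP lowest, and the intervals of SBP and sham overlapped slightly. Fewer cells that express a gene and less of its RNA per cell cannot be told apart in sums over spots.

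The repressors showed the reverse order. Per2 (ENSMUSG00000055866, chromosome 1, 91415982 to 91459324, minus strand) had 186 UMIs in SBP, 116 in I/R and 111 in sham. Its level was 8.60 CPM in SBP (7.41–9.93), 3.84 CPM in I/R (3.17–4.60) and 4.42 CPM in sham (3.64–5.32). Per3 (ENSMUSG00000028957, chromosome 4, 151003652 to 151044665, minus strand), another inhibitor of the BMAL1 complex, was at 10.2 CPM in SBP (8.91–11.7), 5.46 CPM in I/R (4.66–6.36) and 6.25 CPM in sham (5.31–7.31). For both Per genes SBP stood above the other sections and the intervals of sham and I/R overlapped. Ciart (ENSMUSG00000038550, chromosome 3, 95878503 to 95882251, minus strand) had 139 UMIs in SBP, 61 in I/R and 77 in sham. Its level was 6.43 CPM in SBP (5.40–7.59), 2.02 CPM in I/R (1.54–2.59) and 3.07 CPM in sham (2.42–3.83). Again SBP was highest and I/R lowest, with a slight overlap between sham and I/R.

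Both REV-ERB genes were lowest in I/R, and their excess in SBP over sham was small. Nr1d1 (ENSMUSG00000020889, chromosome 11, 98767932 to 98775333, minus strand) was at 52.7 CPM in SBP (49.6–55.8), 34.3 CPM in I/R (32.2–36.4) and 48.2 CPM in sham (45.5–51.0). The intervals of sham and SBP overlapped and both lay above that of I/R. Nr1d2 (ENSMUSG00000021775, chromosome 14, 18204054 to 18239127, minus strand) was at 60.4 CPM in SBP (57.1–63.7), 38.3 CPM in I/R (36.1–40.5) and 50.8 CPM in sham (48.1–53.7). Here the 3 intervals were separate.

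The D-box factors, through which the clock reaches its outputs, followed the same order. Dbp (ENSMUSG00000059824, chromosome 7, 45705088 to 45710203, plus strand) had 2832 UMIs in SBP, 1576 in I/R and 1864 in sham. Its level was 131 CPM in SBP (126–136), 52.1 CPM in I/R (49.6–54.8) and 74.2 CPM in sham (70.9–77.7). Tef (ENSMUSG00000022389, chromosome 15, 81802421 to 81826863, plus strand) was at 75.0 CPM in SBP (71.4–78.8), 38.2 CPM in I/R (36.1–40.5) and 56.7 CPM in sham (53.8–59.8). For both genes SBP was high, I/R was low and no intervals overlapped. Hlf (ENSMUSG00000003949, chromosome 11, 90336536 to 90390895, minus strand) had 340 UMIs in SBP, 189 in I/R and 221 in sham. Its level was 15.7 CPM in SBP (14.1–17.5), 6.25 CPM in I/R (5.39–7.21) and 8.80 CPM in sham (7.68–10.0), also without overlap.

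**Figure D1:**
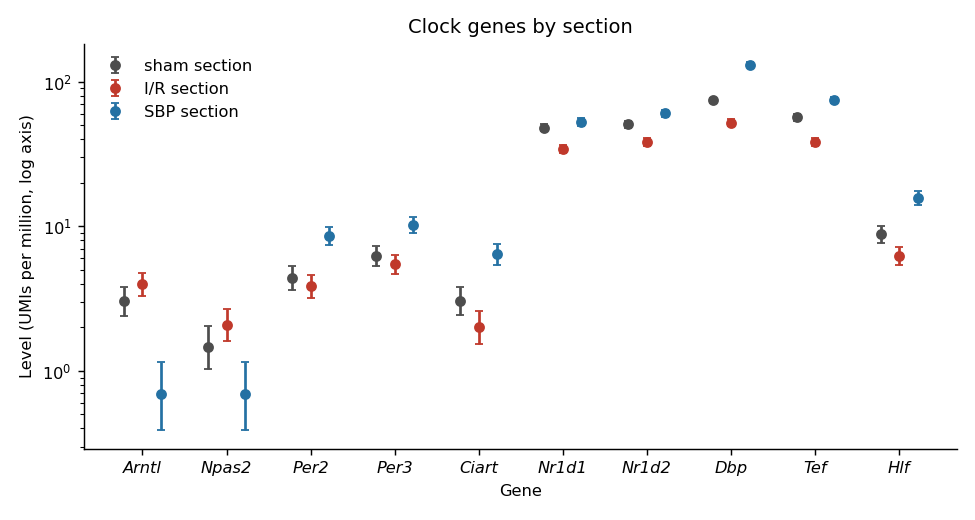
Level of each of the 10 clock genes (CPM, log axis) in the sham, I/R and SBP sections; points are the levels and bars the exact Poisson 95% intervals. Arntl and Npas2 were lowest in SBP (0.693 CPM each), and the other genes were highest in SBP and lowest in I/R.

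Of the 10 genes, 4 share exonic bases with a neighbour on the other strand, and the sources used here do not say whether counting used strand. Nr1d1 shares 263 bases with Thra, Dbp 539 bases with Sphk2, Tef 193 bases with Gm17597 and Arntl 33 bases with Gm45355. Thra, which encodes a thyroid hormone receptor, had a log2 ratio of SBP to I/R of 0.26 (0.12–0.41) and I/R over sham of -0.16 (-0.30 to -0.02). Sphk2, a sphingosine kinase gene, was lower in SBP, against I/R, by a log2 ratio of -0.36 (-0.59 to -0.14), the direction opposite to Dbp. Gm17597 had 2 UMIs in I/R and none elsewhere, and Gm45355 had none in any section.

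Between SBP and I/R the directions of the arms were opposed. Log2 ratios of CPM are given with exact conditional binomial 95% intervals. The 3 comparisons share their sections in pairs, so they are not independent of each other. The log2 ratio of SBP to I/R was -2.52 for Arntl (-3.40 to -1.74), a 5.72-fold lower level, and -1.59 for Npas2 (-2.51 to -0.76). For the repressors it was 1.67 for Ciart (1.23–2.13), 1.16 for Per2 (0.82–1.51) and 0.90 for Per3 (0.61–1.20). For the D-box factors it was 1.33 for Dbp (1.24–1.42), 1.33 for Hlf (1.07–1.59) and 0.97 for Tef (0.86–1.08). The REV-ERB genes had the smallest ratios of the 8, 0.62 for Nr1d1 (0.50–0.74) and 0.66 for Nr1d2 (0.54–0.77).

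A ratio of at least 1.5-fold was used to count genes, without a test. Between SBP and I/R, 8 of the 10 genes were at least 1.5-fold higher, where 1.95% of the 12151 genes that reached 50 UMIs over both sections were, and 2 of the 10 were at least 1.5-fold lower, where 13.8% were. The genes were chosen on this contrast, so these shares are a description. The median log2 ratio was 1.07 over the 8 E-box and D-box genes, -2.05 over Arntl and Npas2 and -0.17 over all 12151 genes. In the ranking of all these genes by ratio, Ciart stood 8th, Hlf 19th, Dbp 20th and Per2 27th from the top, and Arntl stood 45th from the bottom. Just inside the threshold were Nr1d1 at 1.54-fold and Nr1d2 at 1.58-fold, and none of the 10 lay within it.

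I/R differed less from sham, with all 8 E-box and D-box genes at lower levels in I/R. The log2 ratio of I/R to sham was -0.60 for Ciart (-1.11 to -0.10), -0.57 for Tef (-0.68 to -0.46), -0.51 for Dbp (-0.61 to -0.41), -0.49 for Hlf (-0.78 to -0.21), -0.49 for Nr1d1 (-0.61 to -0.37) and -0.41 for Nr1d2 (-0.53 to -0.29). For Per2 and Per3 it was -0.20 each, with intervals that include 0 (-0.59 to 0.18 and -0.52 to 0.13). Arntl had 0.39 (-0.04 to 0.83) and Npas2 0.50 (-0.11 to 1.13), so that neither activator differed from sham beyond counting error. Ciart alone was at least 1.5-fold lower (3.49% of 12231 genes were), by 1.52-fold, with Tef just outside at 1.48-fold, and none was at least 1.5-fold higher (23.2% of genes were). The median over all genes was 0.24 in this comparison, and no share of all genes below 0 is given. Taken relative to that median, 6 of the 10 genes were at least 1.5-fold lower (9.52% of genes were) and none higher (12.7% were).

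Against sham, the 10 genes had the same directions in SBP as against I/R. Of the 10 genes, 5 were at least 1.5-fold higher (5.31% of 11768 genes were) and 2 were at least 1.5-fold lower (2.77% were). Ratios of SBP to sham (log2) were 1.07 for Ciart (0.66–1.49), 0.96 for Per2 (0.61–1.31), 0.84 for Hlf (0.59–1.09), 0.82 for Dbp (0.73–0.90) and 0.71 for Per3 (0.41–1.01). They were 0.40 for Tef (0.30–0.51), 0.25 for Nr1d2 (0.14–0.36) and 0.13 for Nr1d1 (0.01–0.25), which lay within 1.5-fold. The median over all genes was 0.08 in this comparison, within the interval of Nr1d1. Arntl was lower by a log2 ratio of -2.13 (-3.03 to -1.31) and ranked 9th from the bottom of 11768 genes, and Npas2 was lower by -1.09 (-2.06 to -0.19).

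**Figure D2:**
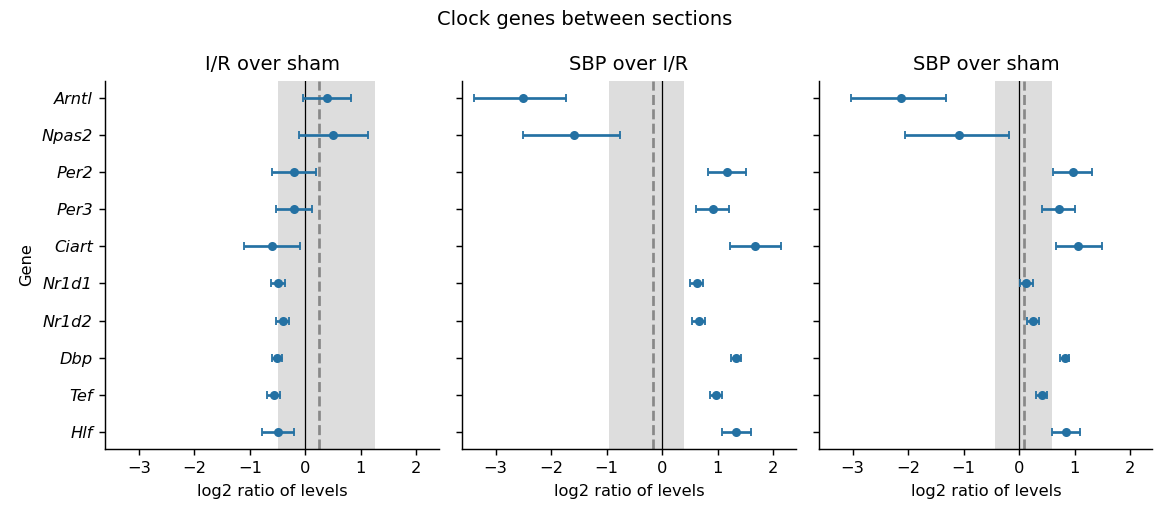
Log2 ratio of the level of each clock gene between the sections named above each panel; points are ratios, bars exact 95% intervals of counting error, the dashed line the median over all genes and the grey band the 5th to 95th percentile of all genes. In SBP over I/R all 10 genes lie outside the band, Arntl and Npas2 below it (-2.52 and -1.59) and the other 8 above it (0.62–1.67).

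The relation between the arms can be read within a section as UMIs of a clock-driven gene per UMI of an activator, a quotient in which the total of the section cancels. There were 189 Dbp UMIs per Arntl UMI in SBP (114–338), 13.1 in I/R (10.9–15.9) and 24.5 in sham (19.5–31.3). For Nr1d1, the repressor of Arntl, the quotient to Arntl was 75.9 in SBP (45.8–136), 8.64 in I/R (7.15–10.5) and 15.9 in sham (12.6–20.3). For Per2 it was 12.4 in SBP (7.33–22.6), 0.967 in I/R (0.742–1.26) and 1.46 in sham (1.08–1.98). Each of these quotients was highest in SBP and lowest in I/R. The intervals of SBP did not overlap the others, and those of sham and I/R overlapped for Per2 only.

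Cell markers and depth also moved between the sections. The 4 neutrophil markers summed to 115 CPM in SBP, 236 CPM in I/R and 27.2 CPM in sham. SBP was at least 1.5-fold below I/R in all 4 (13.8% of all genes were). Of these, Retnlg had only 15 UMIs in SBP and 40 in I/R, a log2 ratio of -0.93 (-1.89 to -0.04). The 4 smooth muscle markers summed to 140 CPM in SBP, 250 CPM in I/R and 335 CPM in sham. Of the 6 cardiomyocyte markers, all were lower in I/R than in sham, by log2 ratios of -0.52 to -0.17, and 5 were higher in SBP than in I/R, by no more than 0.38. The cardiomyocyte sum was thus lowest in I/R and highest in sham. The E-box and D-box genes were also lowest in I/R, and they were highest in SBP. The part of cell composition in the clock values was not tested. Spots were also split at the tertiles of UMIs per spot over the pooled sections. All 8 E-box and D-box genes were higher in SBP than in I/R in every tertile. Their log2 ratios were, for example, 1.16 to 1.68 for Dbp, 1.18 to 2.33 for Ciart and 0.46 to 0.69 for Nr1d1. The 2.33 of Ciart, in the shallowest tertile, rests on 45 UMIs in SBP and 4 in I/R (0.87–4.26). A median over all genes was not computed within tertiles. Arntl had ratios of -3.08 to -1.58 over the tertiles, and in the shallowest, on 6 and 8 UMIs, the interval of the -1.58 included 0 (-3.39 to 0.14). Npas2 was lower in the upper tertiles, on 8 UMIs against 17 and 1 against 46, whereas in the shallowest it had 6 UMIs in SBP and 0 in I/R, and in the middle one SBP stood above sham by a log2 ratio of 0.48 (-1.18 to 2.18). Nr1d1 had a log2 ratio of SBP to sham of -0.05 in the middle tertile (-0.24 to 0.14) and 0.29 in the shallowest (0.07 to 0.52), so that its small excess over sham was not seen at every depth. For I/R over sham, the deepest tertile had directions opposite to whole sections for Arntl, Npas2 and Per2. The log2 ratios were -0.14 (-0.72 to 0.47), -0.30 (-1.09 to 0.53) and 0.01 (-0.61 to 0.68), in that order. Npas2 had 2.19 in the middle tertile (0.85–3.71) and, in the shallowest, 0 UMIs in I/R and 10 in sham. The other E-box and D-box genes were lower in I/R in every tertile.

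The clock transcripts were spread thinly over the sections. To compare shares of spots at equal depth, each spot was thinned to 6500 UMIs, which left out 213 shallower spots of SBP, 202 of I/R and 132 of sham. At that depth a Dbp UMI was found in 56.5% of the spots of SBP (exact binomial 95% interval 54.1%–58.8%), 28.2% of those of I/R (26.2%–30.3%) and 36.5% of those of sham (34.5%–38.6%), and unthinned the shares were 70.2%, 45.8% and 53.1%. At least 1 UMI of the 8 E-box and D-box genes was found in 89.2% of the thinned spots of SBP (87.7%–90.7%), 65.5% of those of I/R (63.3%–67.6%) and 79.3% of those of sham (77.5%–81.0%). For Arntl or Npas2 the shares were 0.859% in SBP (0.481%–1.41%), 3.51% in I/R (2.73%–4.44%) and 2.52% in sham (1.89%–3.29%). The sections thus differed in how many spots had a transcript, and the most UMIs of Dbp in a single spot were 12 in SBP, 6 in I/R and 6 in sham.

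Ankrd1, a cardiac ankyrin repeat gene known to rise in stressed cardiomyocytes, was used to ask whether the differences between sections were the same in spots with high and low Ankrd1. Its level was 1367 CPM in SBP, 1715 CPM in I/R and 879 CPM in sham. Spots above the 95th percentile of sham, 27.0 Ankrd1 UMIs per 10000 UMIs, were called Ankrd1-high. They were 112 spots or 5.01% in sham, 479 or 23.0% in I/R and 326 or 16.6% in SBP. Ankrd1-high spots were deeper than the other spots of their section. The medians were 17348 against 14103 UMIs in I/R, 11989.5 against 10453 UMIs in SBP and 14927 against 10501.5 UMIs in sham.

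SBP exceeded I/R in all 8 E-box and D-box genes in both kinds of spots, with a median log2 ratio of 1.11 in Ankrd1-high spots and 1.03 in the others. Over all genes with enough UMIs the medians were -0.16 and -0.14. In the Ankrd1-high spots only 5 of the 8 had enough UMIs in both sections together. Per3, Ciart and Hlf had too few but are part of the 1.11, and their intervals there lay above 0. No share of all genes above 0 is given for either kind of spots. Tef had a log2 ratio of SBP to I/R of 1.10 in Ankrd1-high spots (0.85–1.35) and 0.92 in the others (0.79–1.04). Ciart had 1.64 (0.39–2.96) and 1.60 (1.12–2.10), on 15 and 10 UMIs in the high spots of SBP and I/R. Nr1d1 had 0.51 (0.22–0.79) and 0.63 (0.49–0.76). For these genes the ratios in both kinds of spots differed by less than counting error. Arntl was lower in SBP in both, by -3.08 in Ankrd1-high spots (-5.41 to -1.46, on 3 and 53 UMIs) and by -2.16 in the others (-3.19 to -1.27). For Npas2 the ratio was -1.87 in the other spots (-2.96 to -0.91), and in the high spots it could not be told from 0 (-0.64, -2.71 to 1.05) on 4 and 13 UMIs.

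Dbp was the exception. In I/R its level was 29.1 CPM over Ankrd1-high spots (25.5–33.1) and 60.6 CPM over the others (57.4–64.0), and in SBP 104 CPM (93.8–114) and 137 CPM (132–143). In sham, where 112 Dbp UMIs fell on Ankrd1-high spots, these levels were 60.7 CPM and 75.3 CPM (71.8–78.9 for the latter). The Ankrd1-high spots of I/R were thus low, below every other kind of spot. The log2 ratio of SBP to I/R was 1.83 in Ankrd1-high spots (1.60–2.07) and 1.18 in the others (1.08–1.27), a difference of 0.65 (0.40–0.90), and Dbp was the only one of the 10 genes for which the interval of this difference lay clear of 0. With Ankrd1 taken after thinning, the difference of Npas2 was also clear of 0, at 1.98 (0.16–3.79), on 5 and 11 UMIs in the high spots of SBP and I/R. Dbp itself, for I/R over sham, had -1.06 in Ankrd1-high spots (-1.39 to -0.72) and -0.31 in the others (-0.42 to -0.21). These Dbp values gave a difference of -0.75 (-1.09 to -0.41). SBP over sham was, for Dbp, 0.77 (0.47–1.09) and 0.86 (0.77–0.95), a difference of -0.09 whose interval includes 0 (-0.41 to 0.22). The difference SBP over I/R had limits of -0.42 to 0.19 for Nr1d1, -0.11 to 0.48 for Nr1d2 and -0.09 to 0.46 for Tef, all below the 0.65 of Dbp. For the scarcer genes the limits were wide, for example -0.53 to 1.21 for Hlf and -0.96 to 0.80 for Per2, and a difference as large as that of Dbp was not detectable there at this depth. From sham to I/R, the 8 E-box and D-box genes were all lower in Ankrd1-high spots (median -0.54). In the other spots (median -0.32) 1 of the 8, Per3, was higher. Over all genes with enough UMIs the medians were 0.13 and 0.19. Only 4 of the 8 had at least 50 UMIs in the high spots of both sections together. Per2, Per3, Ciart and Hlf had fewer, and their intervals there included 0. Per3 had -1.02 in the high spots (-2.11 to 0.16) and 0.03 in the others (-0.32 to 0.37), a difference of -1.05 (-2.13 to 0.03). Arntl had -0.23 (-1.10 to 0.74) and 0.19 (-0.33 to 0.71), in that order.

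**Figure D3:**
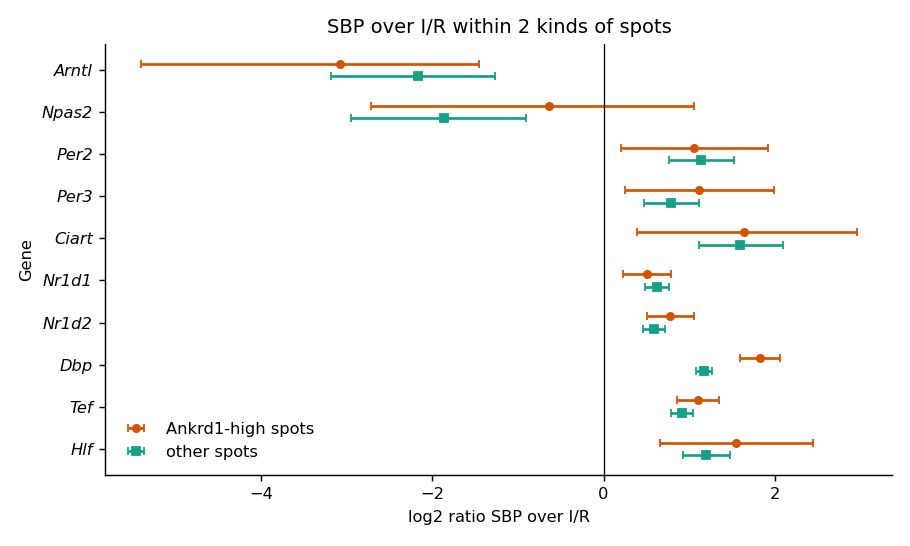
Log2 ratio of SBP to I/R of each clock gene within Ankrd1-high spots (circles) and within the other spots (squares), with exact 95% intervals of counting error. The 8 E-box and D-box genes lie above 0 in both kinds of spots, and the points of Dbp (1.83 and 1.18) are the furthest apart for their error.

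Within each section, the levels of the E-box and D-box genes in Ankrd1-high spots were set against those in the other spots. The log2 ratio of Ankrd1-high to other spots was below 0 in 24 of 24 values (8 genes in 3 sections), where 30.8% of all genes were below 0 in SBP, 25.4% in I/R and 27.5% in sham, and over all genes its median was 0.21 in SBP, 0.24 in I/R and 0.31 in sham. The interval lay below 0 in 13 of the 24 values, namely 2 of 8 in sham (Dbp and Hlf, against 5.22% of all genes), 5 of 8 in I/R (against 8.43%) and 6 of 8 in SBP (against 8.41%). Hlf had the lowest ratio in each section, -1.30 in SBP (-1.92 to -0.74), -1.65 in I/R (-2.39 to -0.97) and -1.51 in sham (-2.97 to -0.36). In I/R it had 20 UMIs in Ankrd1-high spots, a level of 2.45 CPM, and 169 in the others, 7.66 CPM (6.55–8.90). Dbp had -0.40 in SBP (-0.56 to -0.25), -1.06 in I/R (-1.26 to -0.86) and -0.31 in sham (-0.60 to -0.03). Per3 had -0.79 in SBP (-1.46 to -0.19) and -1.12 in I/R (-1.81 to -0.49), but -0.07 in sham (-1.11 to 0.81). Nr1d1 had small values, -0.13, -0.14 and -0.26 in sham, I/R and SBP, and its interval included 0 in sham and I/R. With the 90th percentile of sham as threshold, or with Ankrd1 taken after thinning, the value of Ciart in sham became 0.11 or 0.18, on few UMIs, and the other 23 values stayed below 0.

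Arntl went the other way in 2 sections. In sham its level was 7.59 CPM over Ankrd1-high spots (4.15–12.7) and 2.66 CPM over the others (2.04–3.42), a log2 ratio of 1.51 (0.56–2.36). In I/R it was at 6.49 CPM (4.86–8.48) and 3.04 CPM (2.35–3.86), a log2 ratio of 1.10 (0.55–1.64). In SBP 3 and 12 UMIs gave 0.18 (-2.29 to 2.07), which settles no direction. Arntl and the E-box and D-box genes were thus opposed between spots of 1 section, in sham and in I/R, as they were between sections. The median over all genes was also above 0, at 0.31 in sham and 0.24 in I/R, below the Arntl intervals. Npas2 had 0.72 in SBP, -0.51 in I/R and 0.15 in sham, all with intervals that include 0.

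**Figure D4:**
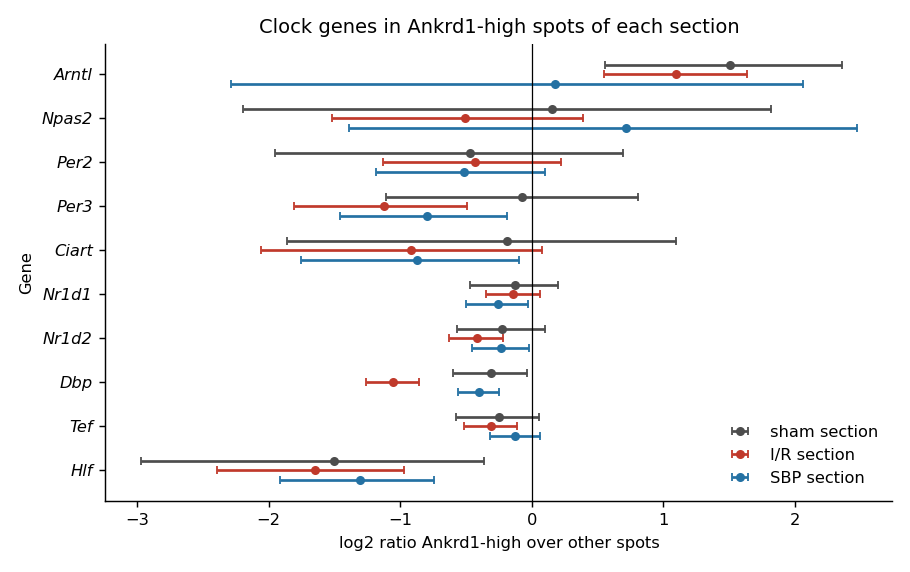
Log2 ratio of the level in Ankrd1-high spots over that in the other spots of the same section for each clock gene, with exact 95% intervals of counting error, in the sham, I/R and SBP sections. The points of the 8 E-box and D-box genes lie below 0 in every section, Hlf lowest, with 13 of 24 intervals clear of 0, and Arntl lies above 0 in sham (1.51) and I/R (1.10).

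The cells of Ankrd1-high spots differed in makeup as well. The log2 ratio of Ankrd1-high to other spots of the summed cardiomyocyte markers was -0.34 in SBP, -0.36 in I/R and -0.43 in sham. The summed 8 E-box and D-box genes had -0.34 in SBP (-0.43 to -0.25), -0.56 in I/R (-0.66 to -0.46) and -0.27 in sham (-0.42 to -0.12). The 2 sums differed by less than counting error in SBP, the clock sum was the lower of them in I/R, and the cardiomyocyte sum was the lower in sham. Neutrophil markers were higher in Ankrd1-high spots by 1.67 in SBP, 0.27 in I/R and 1.24 in sham, fibroblast markers by 0.89 in sham and 0.19 in I/R, and in SBP fibroblast markers had -0.11. The 3 blood markers were lower in Ankrd1-high spots, the direction of the E-box and D-box genes, by -0.57 in SBP, -0.36 in I/R and -1.77 in sham. Macrophage markers had 0.07 in SBP, 0.10 in I/R and 0.48 in sham. The part of cell makeup in these clock values was not tested.

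Clock genes outside the 10 were taken from a list of the pathway. Of the activators, Clock, the usual partner of BMAL1, was at 8.41 CPM in SBP, 13.6 CPM in I/R and 10.5 CPM in sham, a log2 ratio of SBP to I/R of -0.70 (-0.96 to -0.44). All 3 activators were therefore at least 1.5-fold lower in SBP than in I/R (13.8% of all genes were). Arntl and Npas2 belong to the 10 genes chosen on this contrast. Taken relative to the median of all genes, 2 of the 3 were at least 1.5-fold lower, and Clock, at -0.53, was within it. Of the 8 repressors listed, 5 were at least 1.5-fold higher in SBP than in I/R (1.95% of all genes were). None was lower by that much (13.8% of all genes were). Per2, Per3 and Ciart, among these 5, belong to the 10 genes chosen on this contrast. The others past 1.5-fold were Per1 and Cry2. Per1 was at 28.6 CPM in SBP, 15.9 CPM in I/R and 15.7 CPM in sham, with a log2 ratio of 0.85 (0.67–1.02), and Cry2 had 0.69 (0.41–0.97). Bhlhe41, which encodes the E-box repressor DEC2, had 0.46 (0.28–0.65), and its paralog Bhlhe40 had 0.03 (-0.10 to 0.16). Cry1, which carries ROREs and is known to run late against the other repressors, had -0.39 (-0.79 to -0.01).

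Nfil3, the repressor that competes with DBP for D-boxes, was opposed to its competitors in 2 of the 3 comparisons. It was at 5.96 CPM in SBP, 8.57 CPM in I/R and 5.10 CPM in sham. Its log2 ratio of SBP to I/R was -0.52 (-0.84 to -0.21), within 1.5-fold, and that of I/R to sham was 0.75 (0.44–1.07). SBP over sham was 0.23 (-0.14 to 0.59), not opposed to Dbp, Tef and Hlf. Rora, whose receptor activates Arntl at the sites the REV-ERBs use, had 0.32 in SBP over I/R (0.04–0.61). Of the 5 genes with enough UMIs listed as kinases and ubiquitin ligases, with Timeless among them, none was past 1.5-fold between SBP and I/R. Of all genes, 1.95% were at least 1.5-fold higher and 13.8% at least 1.5-fold lower, so that this count is near those shares. The lowest of the 5 was Csnk1d, the casein kinase gene that marks PER proteins for decay, at -0.55 (-0.72 to -0.39).

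Output genes in heart did not follow 1 direction. Of the 8 listed, none was at least 1.5-fold higher in SBP than in I/R (1.95% of all genes were) and 2 were at least 1.5-fold lower (13.8% of all genes were), counts near those shares. These were Pdk4, which restrains pyruvate oxidation, with a log2 ratio of -0.84 (-1.05 to -0.63), and Ucp3, a mitochondrial carrier gene, with -0.81 (-1.29 to -0.34). Pdk4 was at 12.0 CPM in SBP, 21.5 CPM in I/R and 41.1 CPM in sham, so that its order over the sections was not that of Dbp. Usp2, which encodes a deubiquitinase, had 0.56 (0.46–0.66), Dgat2, for triglyceride synthesis, 0.48 (0.41–0.55), and Klf15, a transcription factor of nutrient use, 0.36 (0.10–0.61). Kcnip2, the potassium channel subunit gene, had 0.19 (0.04–0.33) and was lower in I/R than in sham by -0.96 (-1.09 to -0.83). Of the 8 output genes, 4 were at least 1.5-fold lower in I/R than in sham, where 3.49% of all genes were, namely Kcnip2, Ucp3 (-1.02), Pdk4 (-0.94) and Dgat2 (-0.70). Nampt had 0.23 and Wee1 0.00 in SBP over I/R.

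Genes induced by glucocorticoids, hormones that also have a daily rhythm, were taken beside them. Fkbp5 had a log2 ratio of SBP to I/R of -0.31 (-0.60 to -0.02), Tsc22d3 had 0.37 (0.26–0.47) and Per1, which has both kinds of control, had 0.85. Zbtb16 had 21 UMIs in I/R and 27 in SBP and was below the minimum. The genes of this list did not share a direction.

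**Figure D5:**
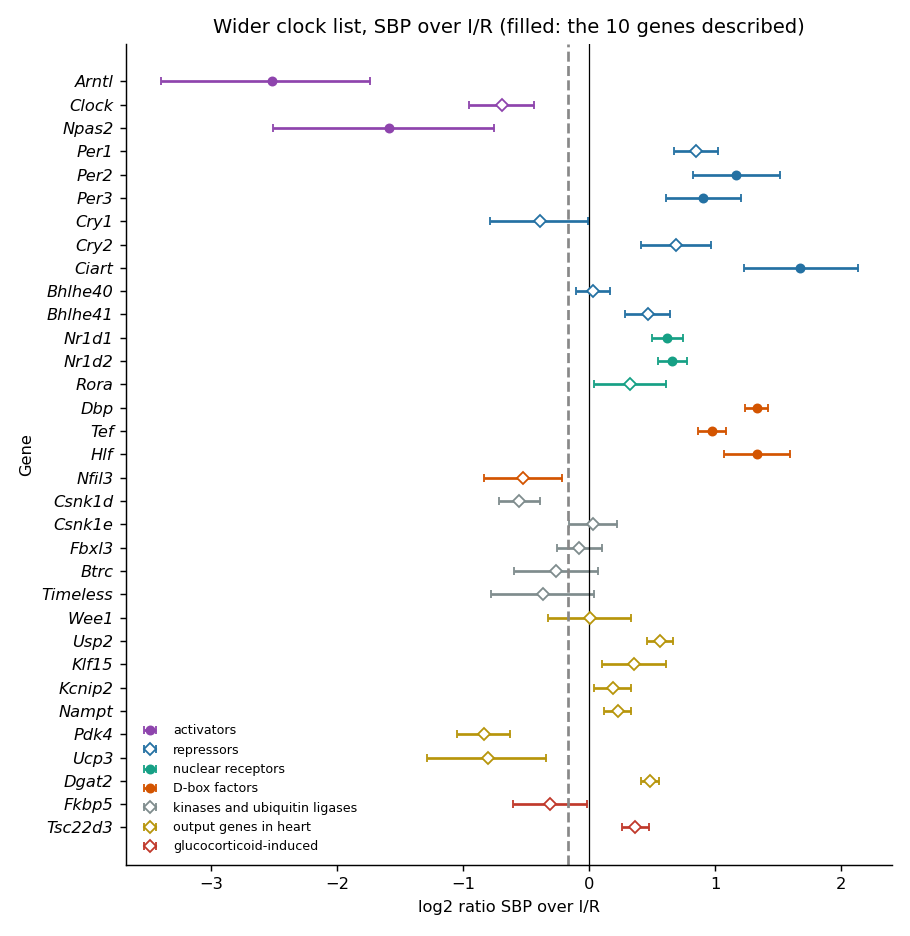
Log2 ratio of SBP to I/R of the reported genes of the wider clock list with at least 50 UMIs in both sections together, grouped by role, with exact 95% intervals of counting error; filled circles are the 10 genes described, open diamonds the others, and the dashed line is the median over all genes (-0.17). Activators lie below 0 (Clock at -0.70), most repressors and the D-box factors other than Nfil3 above it, and output genes on both sides.

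The genes whose pattern over the 3 sections was most like that of Dbp were found among 11606 genes by the Euclidean distance between the pairs of log2 ratios I/R over sham and SBP over I/R. They were Hlf (distance 0.017), Cys1 (0.11), Adh1 (0.15), Alox12 (0.23) and Igf2 (0.24). Hlf is 1 of the 10 genes, and its distance from Dbp was far below that of the next. The genes most like Arntl were Anln (0.37), Knstrn (0.44), Cenpn (0.46), Spc25 (0.48) and Racgap1 (0.50). None of these 5 is in the wider clock list, and they had 9 to 13 UMIs in SBP. Anln had 10 UMIs in SBP, 72 in I/R and 36 in sham. With 3 sections, such likeness is a description of 2 numbers per gene.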

How the data were processed

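The 3 Visium sections (sham, I/R and SBP, 1 mouse each) were used, and libraries of single nuclei were not used here. The authors deposited unnormalized UMI counts for each gene in each spot, made with Space Ranger 1.3.0 (file headers and submitters' notes), on mouse genes, while the methods of the study name another version and a human reference. Sections were grouped by their titles. Spots with fewer than 200 genes were left out (2 of SBP, 1 of I/R and 3 of sham), and UMIs were summed per section. Intervals at the 95% level were exact Poisson, conditional binomial or Clopper-Pearson, and the interval of a difference of log2 ratios used the Poisson variance; all cover counting error only. Without replicates no p-value is given. A gene entered a comparison with at least 50 UMIs in its 2 sections.

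The 10 genes and the gene lists were chosen with earlier results of these data known, so a pattern seen in them is not independent support. Named were the 10 genes, the wider clock list, Ankrd1, Thra, the genes just inside or outside 1.5-fold and the 5 genes nearest to Dbp and to Arntl with at least 100 UMIs in all. Of the wider list, 1 gene is not reported here. Sphk2, Gm17597 and Gm45355 were added as overlapping genes after their values could be seen. The ratios and their intervals were run on simulated Poisson counts, the model the intervals assume. Such counts hold counting error only and say nothing of the spread between mice. Gene positions come from GENCODE M21 (GRCm38), in which 32158 of the 32285 identifiers were found, and sequences from RefSeq. Python 3.11.15, numpy 2.4.6, scipy 1.17.1, pandas 2.3.3, matplotlib 3.10.9 and, for TMM factors, edgeR 4.0.16 in R 4.3.3 were used.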

Additional observations from a re-analysis of the deposited data

How the results depend on the processing

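No paired analysis was possible because a single section stands for each condition. Alternatives changed the denominator, the scaling, the weight, filter or depth of spots, and the low-count minimum, and those of the ratio of Ankrd1-high over other spots were chosen after seeing the data. Of the ratios between sections, none changed direction under an alternative for whole sections, whereas some did within the tertiles of UMIs per spot. TMM and median-of-ratios factors moved the median of all genes by -0.23 and -0.24 for I/R over sham and by 0.16 for SBP over I/R. With them the median of the 8 E-box and D-box genes for I/R over sham was -0.72 and -0.73. The number of genes at least 1.5-fold lower in I/R than in sham, 1 as reported, was 5 without mitochondrial UMIs, 6 with TMM factors, 6 with median-of-ratios factors, 2 with equal weight for each spot and 0 among genes with at least 200 UMIs. The number at least 1.5-fold higher in I/R than in sham, 0 as reported, was 1 with spots thinned to 6500 UMIs and 1 after dropping, for each gene, the 1% of spots richest in it. The number at least 1.5-fold lower in SBP, 2 as reported, was 0 against I/R and 0 against sham with at least 200 UMIs, since Arntl and Npas2 then leave the count, and 1 against sham after thinning. That dropping of spots gave no value for Arntl or Npas2 in SBP, where those spots hold all their UMIs. The difference of Dbp between Ankrd1-high and other spots, SBP over I/R, was 0.78 with the 90th percentile of sham, 0.65 with Ankrd1 after thinning and 0.71 without mitochondrial UMIs. Its interval was clear of 0 under all 3, and that of Npas2 was under thinning alone (1.98). For I/R over sham, the interval of Per3 was clear of 0 under thinning alone, at -1.19 (-2.37 to -0.006). Other causes of these shifts were not tested. Depth limits Arntl and Npas2 in SBP most, at 15 UMIs each.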
